A study of Mus musculus with 8 samples.

Results

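CHIR-99021 was compared directly with carbidopa in mouse embryonic fibroblasts (MEFs), by counting RNA-seq reads per gene. The comparison takes 4 of the 8 libraries of the study: the 2 libraries labelled CHIR-99021 and the 2 labelled Carbidopa, chosen by their treatment labels and by no measured value. The other 4 libraries, of MEFs without compound and of MEFs with a compound that the labels write as LY-364747, were left out of the comparison. The study tested compounds for turning fibroblasts into hepatocyte-like cells, and this contrast asks how the cells under one candidate differ from the cells under another.

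All 4 cultures were wild-type MEFs from mid-gestation embryos of C57BL/6J mice, dissected without head, limbs, tail and inner organs, and used between passages 3 and 5. For each culture 500000 cells were plated and left for 2 h to attach. Either CHIR-99021 or carbidopa was then added at 10 µM, with new medium every 3 days. How long the RNA-seq cultures were treated is not given in the sources used here. The labels name a SMARTER library kit and the methods of the study a NEBNext Ultra kit. Nothing says whether the libraries of a group came from separate embryos or cultures, so p-values measure only the spread between these libraries, which may be technical.

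MEFs are a mixed culture of connective tissue cells that adhere to plastic. CHIR-99021 inhibits glycogen synthase kinase 3 (GSK3), the kinase that marks beta-catenin for destruction and that also restrains glycogen synthase. With GSK3 blocked, beta-catenin enters the nucleus, binds factors of the TCF and LEF family and switches on targets such as Axin2 and Lef1. Carbidopa inhibits aromatic L-amino acid decarboxylase, the vitamin B6 dependent enzyme that makes dopamine and serotonin, and is given with levodopa in Parkinson's disease. Since each library holds one compound or the other, a gene that is higher with CHIR-99021 is by the same value lower with carbidopa. Which compound moved it cannot be told apart in these 4 libraries.

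The libraries held between 16807175 and 20504338 reads counted on genes, and the 10 most abundant genes took 6.34% to 7.39% of them. Carbidopa replicate 1 stood apart by gene length. Relative to carbidopa replicate 2, its median difference ran from 0.30 on the log2 scale in the shortest quintile of genes to -0.30 in the longest. Between the CHIR-99021 replicates the same medians ran only from 0.03 to -0.04. The plot of differences by gene length shows this for each pair, and counts of several gene lists are also given below without that library. The treated cells carry the cell type label hepatic-like, but 30 of 34 hepatocyte markers were too low to be tested, and the albumin gene Alb had 5 and 8 reads with carbidopa and 6 and 7 with CHIR-99021.

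**Figure D1:**
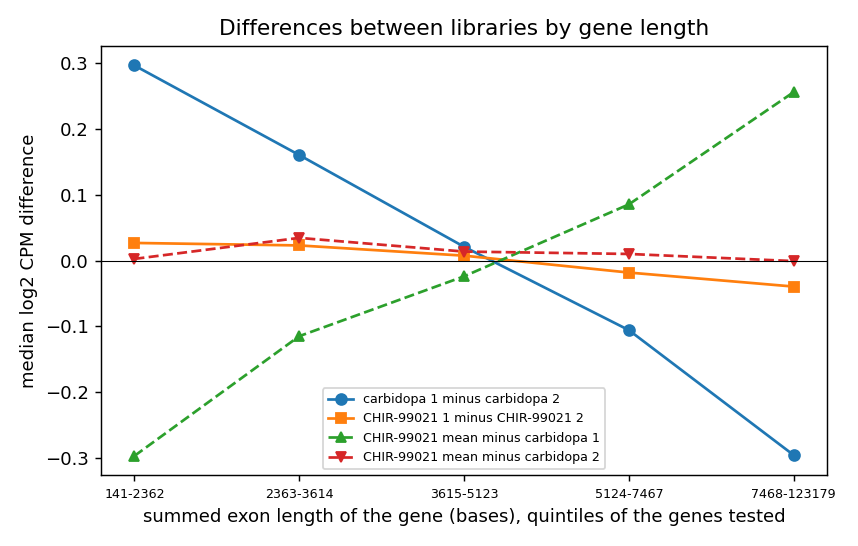
Median difference in log2 CPM, the count scaled to the library total, between libraries (vertical axis) for the genes tested, in quintiles of summed exon length (horizontal axis, bases). The line for carbidopa 1 minus carbidopa 2 falls from 0.30 to -0.30 while the line for the CHIR-99021 replicates stays near 0, and the CHIR-99021 mean differs with length from carbidopa 1 but not from carbidopa 2.

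Of 14410 genes with enough reads to test, 1027 differed between CHIR-99021 and carbidopa in edgeR's quasi-likelihood test (Benjamini-Hochberg adjusted p under 0.05), which is 7.13% of the genes. With CHIR-99021, 402 genes were higher (2.79%) and 625 lower (4.34%). Each count of list members below is to be read beside these shares. The lower genes also moved further. Their median log2 fold change was -1.28, against 0.93 for the higher genes, and 425 of them were over 2-fold lower while 181 of the others were over 2-fold higher. Replicates of a group did not overlap with the other group in any of the 1027 genes, but 52.8% of all genes tested had no overlap either. The count depended on the libraries. In a fit of all groups of the study it was 2881 without carbidopa replicate 1 and 4632 without carbidopa replicate 2. It was 1824 after each library was adjusted for gene length, and 0 in a fit of the 3 libraries left without CHIR-99021 replicate 2, where 1404 genes had an unadjusted p under 0.05. Under the settings used below, 9.03% of genes were higher and 9.16% lower without carbidopa replicate 1 in the fit of all groups, 5.34% and 7.32% with the adjustment for gene length, and 0.876% and 1.72% without CHIR-99021 replicate 1 in the fit of 3 libraries.

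**Figure D2:**
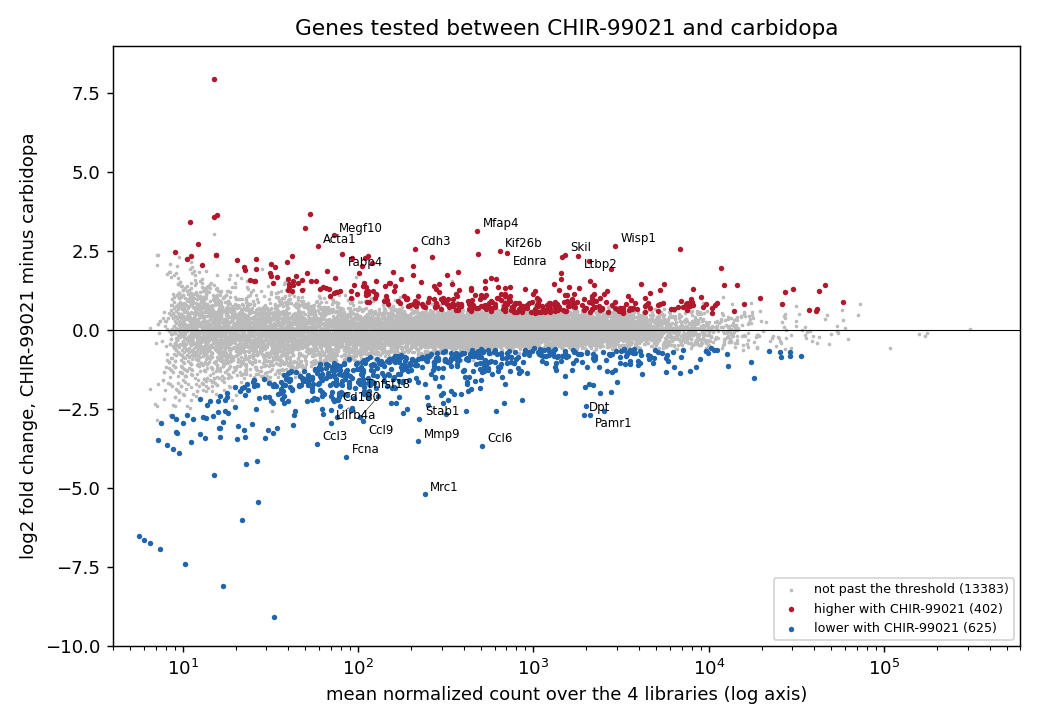
Log2 fold change of CHIR-99021 over carbidopa (vertical axis) against the mean normalized count over the 4 libraries (horizontal axis, log scale) for each of 14410 genes tested, with 402 higher genes in red and 625 lower genes in blue. Most of the highest and lowest genes with a mean of 100 normalized counts or more in 1 group are named, from Mfap4 at the top to Mrc1 at the bottom. Points further out on the left had a mean under 100 normalized counts in both groups.

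Mfap4 (chr11:61485431-61488900 in GENCODE M21 on GRCm38), a protein of elastic fibres, had 94.0 and 100.2 normalized counts in the carbidopa libraries and 778 and 934 in the CHIR-99021 libraries, a difference of 3.14 ± 0.19 on the log2 scale (adjusted p = 2.68e-05). Wisp1 (chr15:66891320-66923201), now called Ccn4, a matricellular protein and a known Wnt-induced gene, went from 715 and 869.8 to 4738 and 5353, 6.39-fold higher. In these genes both CHIR-99021 libraries were far above both carbidopa libraries. In the sentences that follow, the carbidopa libraries come first wherever a gene has a pair of values for each group, and the value just before an adjusted p is the log2 fold change.

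Receptor and adhesion genes were also among the 12 largest rises. Megf10, an engulfment receptor also found in muscle progenitors, had 13.4 and 18.8 and then 134 and 125 normalized counts (3.00, adjusted p = 0.000487). Ednra, the endothelin A receptor, had 208 and 232 with carbidopa against 1108 and 1295 with CHIR-99021 (2.46, adjusted p = 4.33e-05). Cdh3, which encodes P-cadherin, rose from 74.3 and 47.4 to 382 and 345. Others of the 12 were Acta1, Kif26b, Fabp4, Skil and Ltbp2, with log2 fold changes between 2.36 and 2.66. Kif26b was uneven with carbidopa, at 141 and 243, and both values lay far under the 1126 and 1065 of the CHIR-99021 libraries.

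Wnt target genes, the usual readout of GSK3 inhibition, had values of both signs. Of 22 Wnt target genes on the list, 15 were expressed enough to test, 2 were higher with CHIR-99021 and none lower, with a median log2 fold change of 0.47 beside 0.0049 for all genes tested. Myc (chr15:61985391-61990374), the growth-promoting transcription factor, had 434 and 379 normalized counts with carbidopa and 1100.5 and 1009 with CHIR-99021, 2.60-fold higher (1.38, adjusted p = 0.000863). Lef1 (chr3:131110471-131224356), itself a partner of beta-catenin, had 29.5 and 16.1 against 74.1 and 85.8 (1.81, adjusted p = 0.013). Both genes were separated by more than the distance between replicates. The lowest value belonged to Ascl2, a transcription factor of stem cells, with 45 and 22 reads against 8 and 1 (-2.56, adjusted p = 0.0526), and in a fit of all 8 libraries it passed as lower (adjusted p = 0.0385). The fit of all groups without carbidopa replicate 1 had 3 targets higher and 2 lower, and the adjustment for gene length 2 and 2.

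Feedback inhibitors of the pathway had values of both signs, and none passed the threshold. Axin2 (chr11:108920349-108950783), the scaffold whose transcript is the usual reporter of beta-catenin activity, was at 54.6 and 53.7 normalized counts with carbidopa and 34.9 and 36.8 with CHIR-99021, a log2 fold change of -0.59 ± 0.30 that missed the threshold (adjusted p = 0.294). Nkd1, which dampens signalling through Dishevelled, had 83.3 and 86.8 against 57.7 and 39.0 (-0.80, adjusted p = 0.134). Values of the CHIR-99021 libraries were thus the smaller ones in both genes. Nkd2, a relative of Nkd1, had 108 and 121 against 143 and 194 (0.56, adjusted p = 0.189). The ubiquitin ligase genes Rnf43 and Znrf3, which remove Wnt receptors, had log2 fold changes of 1.05 (adjusted p = 0.261) and 0.57 (adjusted p = 0.115), with both CHIR-99021 libraries above both carbidopa libraries in these 3 genes. In the fit of all 8 libraries Nkd1 passed as lower (adjusted p = 0.0404) and Znrf3 as higher (adjusted p = 0.0295). Tcf7 was at 56.4 and 44.7 and 74.1 and 94.7 (adjusted p = 0.156) and the cyclin gene Ccnd1 at 21809 and 25855 and 28348 and 28208 (adjusted p = 0.403). Notum, Sp5, Dkk1, Dkk4, Wif1, Cdx1 and Fgf20 were below the count filter, with at most 7 reads in any of the 4 libraries.

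Among 29 tested core components of the pathway 1 passed, the co-receptor gene Lrp5, at 2284 and 2629 against 3889 and 3512 normalized counts (0.60, adjusted p = 0.0459). The list's median was 0.19. In 13 of the 29 both CHIR-99021 libraries stood above both carbidopa libraries, against 26.2% of all genes. In the fit of all groups without carbidopa replicate 1, 8 were higher and 1 lower, and with the adjustment for gene length 5 and 0. Transcripts of the drug target itself were close in both groups: Gsk3a had 1721 and 1591 with carbidopa and 1680.2 and 1699 with CHIR-99021, and Gsk3b had 3539 and 4695 and 4435 and 4991. Ctnnb1, which encodes beta-catenin, had 13265 and 12988 and 13148 and 13554. For each of these 3 genes the groups overlapped.

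Secreted ligands and antagonists moved in both directions. Of 15 tested, 1 was higher and 2 lower, with a median of -0.43, and without carbidopa replicate 1 in the fit of all groups 1 and 5 were. The ligand gene Wnt10b had 26.0 and 21.5 normalized counts with carbidopa and 73.0 and 71.3 with CHIR-99021 (1.61, adjusted p = 0.013). Sfrp1, a decoy that binds Wnt proteins outside the cell, was 2.52-fold lower with CHIR-99021, at 7185 and 9147 against 3115 and 3342 (-1.33, adjusted p = 0.00148). Rspo2, an R-spondin that amplifies Wnt signalling, had 32 and 26 reads with carbidopa and 2 and 5 with CHIR-99021. Its ratio of 6.70 had a 95% interval of 3.05 to 17.4 that covers counting error only.

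Glycogen genes, among them the gene of glycogen synthase, the other classic substrate of GSK3, showed 1 call among 19 tested and a median of -0.13. Without carbidopa replicate 1 in the fit of all groups, 3 were higher and 2 lower. Gyg, the glycogenin gene that primes a new glycogen chain, was lower with CHIR-99021, at 5749.9 and 6178 against 2995 and 3266 normalized counts (-0.92, adjusted p = 0.0053). Glycogen synthase Gys1 had 501 and 570.0 with carbidopa and 767 and 802 with CHIR-99021 (0.56, adjusted p = 0.0578). In the fit of all 8 libraries Gys1 passed as higher (adjusted p = 0.00714). Carbidopa's own target, Ddc, was scarce, with 34 and 26 reads in the carbidopa libraries and 33 and 62 in the CHIR-99021 libraries (0.97, adjusted p = 0.181). Around it, 3 of 7 tested genes of monoamine and vitamin B6 metabolism were lower with CHIR-99021. They were the monoamine oxidases Maoa (4445 and 4132 against 2477 and 2573, -0.76, adjusted p = 0.0129) and Maob (211 and 201 against 70.8 and 80.2, -1.44, adjusted p = 0.00358), and Alpl, a phosphatase that releases vitamin B6 from its phosphate and also marks bone cells (-1.63, adjusted p = 0.0383).

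TGF-beta targets were the list with the largest share of higher genes. Of 20 tested, 14 were higher with CHIR-99021 and 1 lower, where 2.79% and 4.34% of all genes were, and the median log2 fold change was 0.88. All 20 were named for their response to TGF-beta in other settings. Without carbidopa replicate 1, in the fit of all groups, 17 were higher and 1 lower, and with the adjustment for gene length 15 and 1. Leaving out CHIR-99021 replicate 1 left 8 higher in the fit of 3 libraries.

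Feedback regulators of the pathway were among them. Smad7, the inhibitory SMAD that removes the TGF-beta receptor, had 398 and 414 normalized counts with carbidopa and 902 and 910.4 with CHIR-99021 (1.16, adjusted p = 0.00155). Skil, the co-repressor SnoN, had 475 and 498 against 2354 and 2708, 5.22-fold higher (2.39, adjusted p = 3.93e-05). Ldlrad4 and Pmepa1, membrane proteins that hold back receptor-activated SMADs, had log2 fold changes of 2.05 and 0.85. Replicates of each of these 4 genes lay close together relative to the gap between groups.

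Effectors and the ligand moved the same way. Ctgf, now Ccn2, a matricellular growth factor modulator, had 788 and 699.8 with carbidopa and 3445 and 3322 with CHIR-99021 (2.19, adjusted p = 5.09e-05). Ltbp2, a latent TGF-beta binding protein of microfibrils, had 538 and 637 and 3224 and 2802 (2.36, adjusted p = 5.09e-05). Angptl4, a secreted lipase inhibitor, had 766 and 644 and 2294 and 2032 (1.62, adjusted p = 0.000418). The ligand gene Tgfb1 differed less, at 1112 and 984 and 1667 and 1539 (0.62, adjusted p = 0.0339). The only target called lower was Tgfbi, a secreted adhesion protein. It was 6.25-fold lower with CHIR-99021, at 549 and 545 against 100.2 and 73.5 (-2.64, adjusted p = 0.000108). Of the 20 targets, 18 had positive and 2 negative values.

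**Figure D3:**
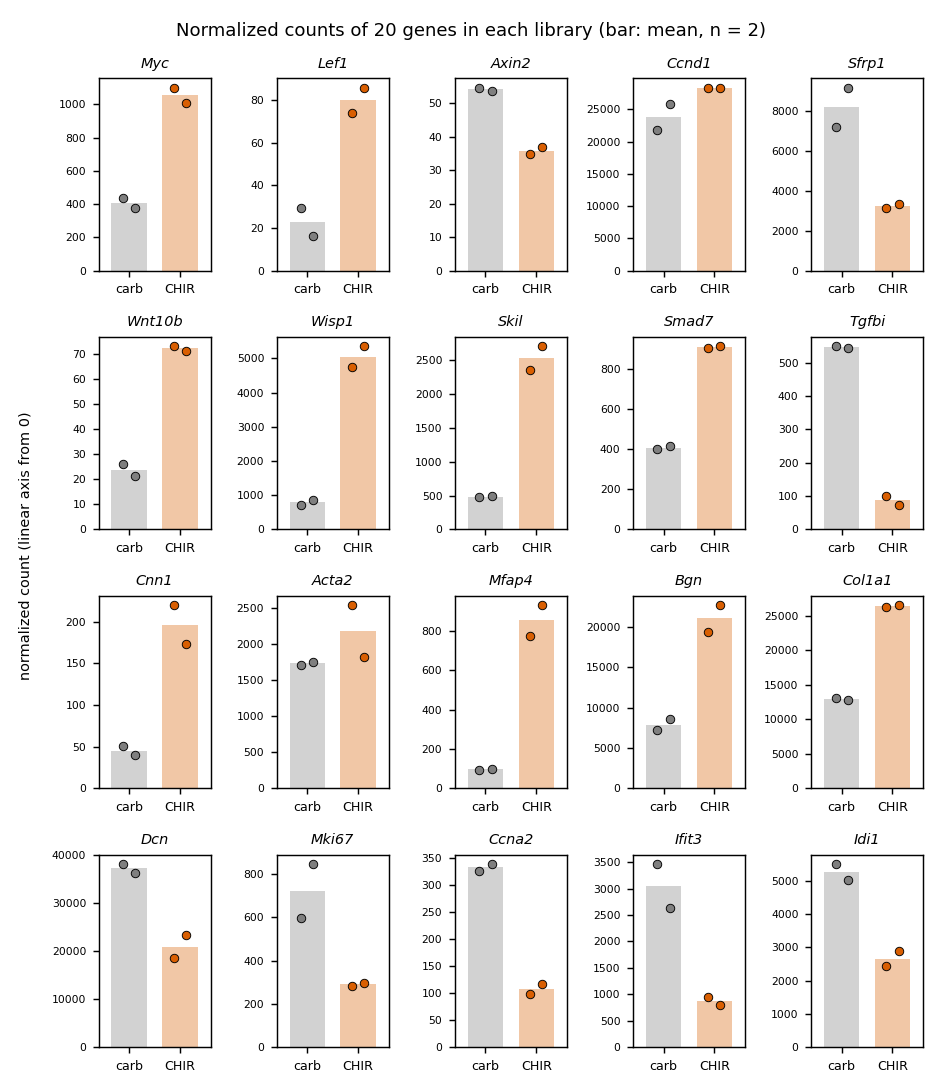
Normalized counts of 20 genes in each library (points) and the mean of each group (bars, n = 2), on linear axes from 0 with a scale of its own for each gene. The CHIR-99021 points stand far above the carbidopa points for Wisp1, Skil and Mfap4 and far below for Tgfbi, Ccna2 and Ifit3, while Axin2, Ccnd1 and Acta2 did not pass the threshold.

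Of 15 tested contractile genes of smooth muscle and myofibroblasts, 7 were higher with CHIR-99021 and none lower, where 2.79% and 4.34% of all genes were. The median was 0.64, and all 15 log2 fold changes were positive. Both CHIR-99021 libraries stood above both carbidopa libraries in 11 of the 15, which was so for 26.2% of all genes. Of the 15, 10 were higher without carbidopa replicate 1 in the fit of all groups, 3 without CHIR-99021 replicate 1 in the fit of 3 libraries, and none without the filter on low counts. Without carbidopa replicate 2, Des turned to -0.060. Cnn1 (chr9:22099216-22109630), the actin-binding calponin, had 51.0 and 39.4 normalized counts with carbidopa and 220.1 and 173 with CHIR-99021 (2.12, adjusted p = 0.00118). Lmod1, which nucleates actin filaments, had 294 and 260.4 against 972 and 757 (1.65, adjusted p = 0.000695). Myl9, a light chain of smooth muscle myosin, had 984 and 795 against 2544 and 2073 (1.38, adjusted p = 0.00148), and the actin cross-linker Tagln 5993 and 4536 against 11045 and 9994 (1.01, adjusted p = 0.0078). The other members past the threshold were Actg2, Tpm1 and Smtn.

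The usual myofibroblast marker was not among the called genes. Acta2, smooth muscle alpha-actin, had 1714 and 1752 normalized counts with carbidopa and 2539.8 and 1818 with CHIR-99021, and 0.34 ± 0.18 on the log2 scale missed the threshold (adjusted p = 0.308). Its CHIR-99021 libraries were far apart and the lower one was next to the carbidopa values. Acta1, skeletal muscle actin, was higher, at 19.7 and 12.5 against 112 and 91.4 (2.66, adjusted p = 0.00151), but of the 15 genes on the skeletal muscle list only 3 reached the filter and Acta1 was the only call.

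Serum response factor binds a 10-base element, the CArG box, in promoters of many contractile genes. RefSeq promoters were at hand for 12 of the 15 tested members, and a CArG box lay within 250 bases before the start in 1 of them, Myl9, against 1.62% of all genes with a promoter. The window follows, with the element in capitals (GRCm38.p6, the assembly also called mm10, chr2:156775214-156775463, plus strand, 5′ to 3′). A match describes the letters of this window and not a bound site.
Myl9: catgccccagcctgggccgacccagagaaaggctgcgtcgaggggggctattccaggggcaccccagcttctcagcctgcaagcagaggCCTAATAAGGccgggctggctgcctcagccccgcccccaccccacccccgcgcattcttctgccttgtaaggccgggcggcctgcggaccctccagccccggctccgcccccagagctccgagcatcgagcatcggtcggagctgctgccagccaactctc

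Transcripts of matrix proteins differed in both directions. Among 13 elastic fibre genes, 4 were higher and 2 lower with a median of 0.54. Beside Mfap4, the higher members were Fbln2, which bridges elastic and basement membrane proteins (4600.3 and 4939.8 against 19575 and 18073, 1.99, adjusted p = 0.000115), Fbln5, which organises elastin (0.69, adjusted p = 0.0183), and Ltbp4 (0.77, adjusted p = 0.0388). Mfap5 (-0.96, adjusted p = 0.0209) and Efemp1 (-0.66, adjusted p = 0.0315) were lower. Elastin itself, Eln, was scarce at 10.7 and 8.95 and 15.3 and 13.4 normalized counts and did not pass.

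Type I collagen is built of chains from Col1a1 and Col1a2. Col1a1 had 13093 and 12779.9 normalized counts with carbidopa and 26246 and 26608 with CHIR-99021, 2.05-fold higher (1.04, adjusted p = 0.00305). Col1a2 had 18544 and 18897 against 14436 and 15362 and a log2 fold change of -0.32 ± 0.15 (adjusted p = 0.246). Col1a2 passed as lower in the fit of all 8 libraries (adjusted p = 0.0407) and with the adjustment for gene length (-0.50, adjusted p = 0.0343). Col3a1 overlapped between groups, at 11355 and 10573 and 11294 and 11336. The minor fibrillar genes Col11a1 (1.02, adjusted p = 0.00806) and Col24a1 (2.01, adjusted p = 0.0133) were the other 2 calls among 10 tested, and the median was 0.31. Of 10 collagen-modifying enzymes, 2 were higher and none lower: Lox, the lysyl oxidase that cross-links collagen and elastin, at 15363 and 17438 against 36075 and 39816 (1.22, adjusted p = 0.00181), and its relative Loxl3 (0.57, adjusted p = 0.0436).

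Small leucine-rich proteoglycans, which coat collagen fibrils and bind growth factors, moved in opposite directions, with 2 of 9 higher and 3 lower. Aspn, asporin, went from 6.27 and 8.95 normalized counts with carbidopa to 75.2 and 123 with CHIR-99021 (3.68, adjusted p = 0.000798). Bgn, biglycan, had 7195 and 8608 and 19442 and 22735 (1.42, adjusted p = 0.00112). On the other side Dcn, decorin, fell from 38124 and 36195 with carbidopa to 18560.2 and 23216 with CHIR-99021 (-0.82, adjusted p = 0.0164), Prelp from 963 and 1288 to 216 and 241 (-2.30, adjusted p = 0.000149), and Fmod, fibromodulin, from 33.1 and 38.5 to 14.2 and 7.80 (-1.68, adjusted p = 0.0476). Biglycan and decorin are close relatives, and they moved in opposite directions.

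Matrix-degrading enzymes and their inhibitors had no higher member and 4 lower among 13 tested. They were the gelatinase Mmp9 (404 and 405 against 43.6 and 26.7, -3.51, adjusted p = 5.63e-05), the stromelysin Mmp3 (474 and 489.5 against 109 and 121, -2.06, adjusted p = 0.000229), Mmp12, known as macrophage elastase (408 and 481 against 142 and 175, -1.48, adjusted p = 0.00177), and the inhibitor Timp3 (-0.75, adjusted p = 0.0396). Macrophage markers were lower in the same libraries, and their part in the values of Mmp9 and Mmp12 was not tested.

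**Figure D4:**
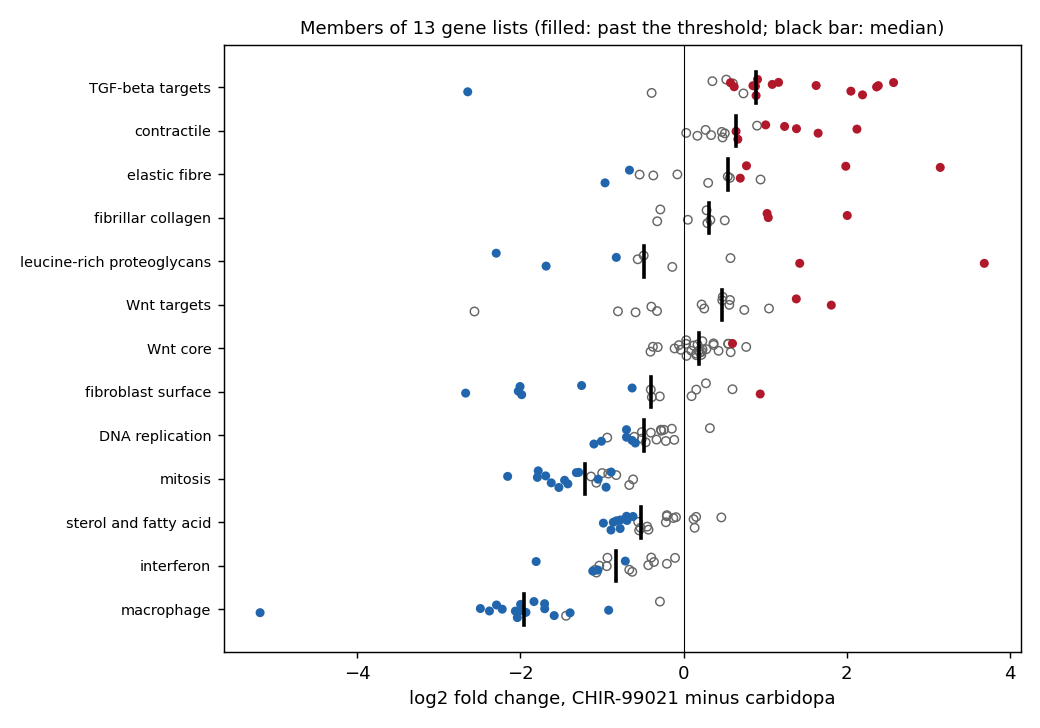
Log2 fold change of CHIR-99021 over carbidopa for the tested members of 13 gene lists (filled points passed the threshold, open points did not, black bars are list medians). TGF-beta targets have a median of 0.88 and contractile genes 0.64, mitosis genes lie at -1.21 and macrophage genes at -1.96, and leucine-rich proteoglycans spread on both sides of 0.

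Cell cycle genes were the other large block of lower genes. Of 20 genes of mitosis, 13 were lower, where 4.34% of all genes were, and none higher. All 20 had negative log2 fold changes and the median was -1.21. In all 20 both CHIR-99021 libraries lay under both carbidopa libraries, which was so for 26.6% of all genes. Without carbidopa replicate 1 in the fit of all groups 18 were lower, and without CHIR-99021 replicate 1 in the fit of 3 libraries 9 were. Of 20 DNA replication genes 6 were lower, none higher, with a median of -0.49. Of these 20, 9 were lower without carbidopa replicate 1 in the fit of all groups, and without CHIR-99021 replicate 1 in the fit of 3 libraries none was.

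Ccnb2, cyclin B2, had 101 and 82.3 normalized counts with carbidopa and 16.3 and 24.5 with CHIR-99021 (-2.16, adjusted p = 0.00394). Nusap1, which binds spindle microtubules, had 129.8 and 147 and 37.0 and 42.3 (-1.79, adjusted p = 0.00287). Ccna2, cyclin A2, had 326 and 339 and 98.1 and 117 (-1.62, adjusted p = 0.00131). Kif11, the motor that pushes spindle poles apart, had 162 and 174 and 40.3 and 56.8 (-1.78, adjusted p = 0.00289). The proliferation marker Mki67 was 2.49-fold lower, at 595 and 849 against 281 and 298 (-1.31, adjusted p = 0.0035). Its carbidopa libraries were wide apart, yet both stood above the CHIR-99021 libraries. Cdk1, the kinase that the mitotic cyclins activate, had 355 and 306 against 199 and 229.6 and missed the threshold (adjusted p = 0.0783). In the fit of all 8 libraries Cdk1 passed as lower (adjusted p = 0.0181).

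Replication genes differed by less. Ccne2 (-1.10, adjusted p = 0.0209) and Ccne1 (-0.70, adjusted p = 0.0292), the cyclins E of entry into S phase, the nucleotide enzymes Rrm1 (-0.70, adjusted p = 0.0174) and Rrm2 (-0.59, adjusted p = 0.0484), and the polymerase clamp Pcna (-0.63, adjusted p = 0.0315) were among the 6 that were lower. Among the replicative helicase genes Mcm2 had a positive value of 0.32 (adjusted p = 0.258), the only positive one of the 20. Of 12 cell cycle inhibitors, D-type cyclins and their kinases, the inhibitors Cdkn2c (-1.35, adjusted p = 0.00694) and Cdkn1c (-0.98, adjusted p = 0.00689) were lower. Cdkn1a, p21, had 13469 and 11338 against 16036 and 16777 normalized counts (0.41, adjusted p = 0.162). In the fit of all 8 libraries Cdkn1a passed as higher (adjusted p = 0.0327).

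Many mitotic promoters carry the cell cycle homology region, spelled TTTGAA, through which the DREAM complex represses them in resting cells. It was found on either strand in 6 of 16 mitosis genes with a promoter sequence and in 18.3% of all genes. Of the 6, Mki67, Top2a, Ccnb2 and Kif11 were lower, and Cdk1 and Cdc20 did not pass the threshold. The promoters of Ccnb2 (chr9:70421555-70421804, minus strand) and Kif11 (chr19:37376132-37376381, plus strand) are printed as examples of lower genes with a match, with the element in capitals, in Kif11 as its reverse complement. The short letters also occur by themselves in many windows, and the share among all genes is the measure of that.
Ccnb2: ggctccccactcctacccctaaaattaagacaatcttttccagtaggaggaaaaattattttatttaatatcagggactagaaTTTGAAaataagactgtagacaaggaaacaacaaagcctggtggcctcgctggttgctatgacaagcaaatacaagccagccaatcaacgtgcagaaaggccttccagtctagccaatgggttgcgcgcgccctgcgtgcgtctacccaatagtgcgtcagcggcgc
Kif11: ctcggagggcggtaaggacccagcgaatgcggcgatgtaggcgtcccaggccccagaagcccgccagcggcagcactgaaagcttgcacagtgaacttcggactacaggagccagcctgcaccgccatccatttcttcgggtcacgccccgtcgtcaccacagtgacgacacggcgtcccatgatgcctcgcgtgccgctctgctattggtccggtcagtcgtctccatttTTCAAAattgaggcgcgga

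Transcripts of several enzymes of the mevalonate pathway were lower. Of 23 genes of cholesterol and fatty acid synthesis, 9 were lower with CHIR-99021, where 4.34% of all genes were. None was higher, and the median was -0.53. Of the 9, 8 were enzymes of the sterol arm and 1, Insig1, a regulator. Idi1, which makes dimethylallyl diphosphate, had 5525 and 5034 normalized counts with carbidopa and 2432 and 2887 with CHIR-99021 (-0.98, adjusted p = 0.00498). Hmgcs1, which makes HMG-CoA, had 7867 and 7615 and 4442 and 5089 (-0.69, adjusted p = 0.0221). Insig1, which retains the sterol sensor in the endoplasmic reticulum, had 7145 and 7391 and 4018 and 4424 (-0.78, adjusted p = 0.0126). Fdps, Fdft1, Sqle, Lss, Msmo1 and Dhcr7, which act in turn from farnesyl diphosphate to cholesterol, had log2 fold changes between -0.89 and -0.62.

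Fasn, the fatty acid synthase gene, had a log2 fold change of 0.46 that missed the threshold (adjusted p = 0.223). In the fit of 3 libraries without CHIR-99021 replicate 1 none of the 23 passed, and without carbidopa replicate 1 in the fit of all groups 16 were lower. A sterol regulatory element spelled TCACNCCAC, searched on both strands, was in 1 of 15 members with a promoter, Hmgcs1, and in 1.22% of all genes. It stands in capitals in the window before the start of Hmgcs1 (chr13:119690101-119690350, plus strand).
Hmgcs1: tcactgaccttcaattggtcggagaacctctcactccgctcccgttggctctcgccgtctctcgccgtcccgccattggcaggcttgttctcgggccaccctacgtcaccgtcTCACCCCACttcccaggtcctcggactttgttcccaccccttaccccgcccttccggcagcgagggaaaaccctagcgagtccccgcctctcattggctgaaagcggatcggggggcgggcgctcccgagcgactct

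All 16 tested interferon-stimulated genes had negative log2 fold changes, with a median of -0.82. Of the 16, 4 passed the threshold as lower, where 4.34% of all genes did, and none was higher. Without CHIR-99021 replicate 1 in the fit of 3 libraries 1 passed. Without carbidopa replicate 1 in the fit of all groups 5 passed and the median was -0.46. Without it in the fit of 3 libraries, Isg15 turned to 0.30. Ifit3, an antiviral protein with tetratricopeptide repeats, had 3477 and 2629 normalized counts with carbidopa and 948 and 789 with CHIR-99021 (-1.81, adjusted p = 0.000487). Its relative Ifit2 had 4209 and 4183 and 1864 and 2172 (-1.05, adjusted p = 0.00305). Ifit1 (-1.11, adjusted p = 0.0355) and Ifih1, the RNA sensor MDA5 (-0.71, adjusted p = 0.0209), completed the 4. Isg15 overlapped between groups.

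The interferon-stimulated response element, here TTTC and TTTC with 2 bases of any kind between them on either strand, was present in 6 of 13 members with a promoter sequence and in 3.46% of all genes. It occurs more than once in the windows of Ifit3 (chr19:34583279-34583528, plus strand) and Ifit1 (chr19:34640639-34640888, plus strand), where each copy is in capitals. Of the 6 genes with a match, Ifit1 and Ifit3 were lower, and Isg15, Stat2, Rsad2 and Bst2 did not pass the threshold. In the fit of all 8 libraries Stat2 (adjusted p = 0.0147) and Bst2 (adjusted p = 0.0324) passed as lower.
Ifit3: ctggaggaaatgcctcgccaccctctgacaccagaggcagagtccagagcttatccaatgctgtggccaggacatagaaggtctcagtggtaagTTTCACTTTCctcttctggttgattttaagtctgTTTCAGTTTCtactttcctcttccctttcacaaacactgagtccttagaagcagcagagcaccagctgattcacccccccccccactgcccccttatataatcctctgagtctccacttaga
Ifit1: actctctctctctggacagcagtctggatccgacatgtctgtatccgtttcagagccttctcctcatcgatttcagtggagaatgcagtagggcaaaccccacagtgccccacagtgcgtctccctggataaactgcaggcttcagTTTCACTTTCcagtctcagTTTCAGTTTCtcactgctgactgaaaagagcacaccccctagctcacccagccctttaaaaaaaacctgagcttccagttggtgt

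Macrophage genes fell furthest. Of 21 markers 18 were tested, and 16 were lower with CHIR-99021, where 4.34% of all genes were. None was higher, and the median log2 fold change was -1.96. Summed over the list, macrophage transcripts made up 502 to 519 CPM with carbidopa and 130.2 to 135 with CHIR-99021. None of the 18 was at 0 in any library. In bulk RNA, fewer macrophages and less of these transcripts per macrophage cannot be told apart. Without carbidopa replicate 1 in the fit of all groups 16 were lower, and without CHIR-99021 replicate 1 in the fit of 3 libraries 15 were.

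Mrc1 (chr2:14229392-14332057), the mannose receptor CD206 of tissue macrophages, had 439 and 498 normalized counts with carbidopa and 10.9 and 14.5 with CHIR-99021, a difference of -5.19 ± 0.26 on the log2 scale (adjusted p = 1.44e-05). Lyz2, lysozyme of myeloid cells, had 4096 and 3587 and 905 and 1033 (-1.98, adjusted p = 0.000141). Csf1r, the receptor on which macrophages depend for survival, had 236 and 273 and 71.9 and 70.2 (-1.83, adjusted p = 0.00104). Mrc1 therefore stood 36.5-fold lower, Lyz2 3.94-fold and Csf1r 3.56-fold. The complement subunits C1qa, C1qb and C1qc ranged from -2.49 to -1.70. Spi1, the myeloid transcription factor PU.1 (-1.44, adjusted p = 0.0504), and Cd14 (-0.29, adjusted p = 0.552) did not pass. In the fit of all 8 libraries Spi1 passed as lower (adjusted p = 0.0149). Csf1, which encodes the ligand of Csf1r and is made by fibroblasts, was higher with CHIR-99021, at 5569 and 5432 against 10591 and 9385 (0.87, adjusted p = 0.00808).

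Among the 12 largest falls, most are genes known from macrophages. They include the lectin gene Fcna (-4.00, adjusted p = 0.000264), the chemokine genes Ccl6 (-3.66, adjusted p = 1.44e-05), Ccl3 (-3.59, adjusted p = 0.00103) and Ccl9 (-2.88, adjusted p = 0.000626), the scavenger receptor gene Stab1 (-2.81, adjusted p = 0.000798) and Cd180, a relative of Toll-like receptors (-2.75, adjusted p = 0.00205). Lilrb4a is listed under overlapping gene models that can share reads, so its values are uncertain and not given. Pamr1 and Dpt are secreted proteins of fibroblasts. Pamr1 had 3589 and 3658 with carbidopa and 563 and 571 with CHIR-99021 (-2.67, adjusted p = 2.68e-05), and Dpt, dermatopontin, 3605 and 3097 and 526 and 522 (-2.67, adjusted p = 2.68e-05). Tnfsf18, the ligand of the receptor GITR, completed the set (-2.75, adjusted p = 0.000943).

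**Figure D5:**
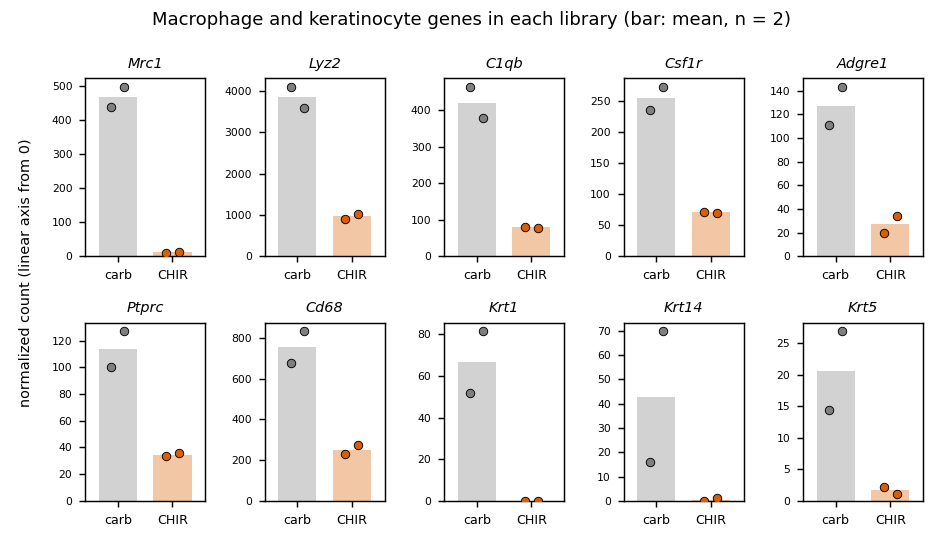
Normalized counts of 7 macrophage and 3 keratinocyte genes in each library (points) with group means (bars, n = 2), on linear axes from 0 with a scale of its own for each gene. In all 10 genes both CHIR-99021 libraries lie under both carbidopa libraries, and Krt1 has no reads in either CHIR-99021 library.

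Several keratinocyte genes had reads mainly with carbidopa. Krt1, of differentiating keratinocytes, had 58 and 91 reads with carbidopa and none with CHIR-99021, which with 3 reads per library as the floor makes it at least 20.2-fold lower. Flg, filaggrin, had 49 and 27 reads against none, at least 10.3-fold lower, and Pkp1, a desmosome protein, 11 and 16 against none, at least 3.66-fold lower. Krt14 of basal keratinocytes had 18 and 78 reads with carbidopa and 0 and 1 with CHIR-99021, a ratio of 77.6 with a 95% counting interval of 13.6 to 3097. Krt5, its partner, had 16 and 30 against 2 and 1. The carbidopa libraries differed widely from each other in Krt14. Krt10 was present in both groups, with 170 and 102 against 38 and 30 reads (-1.69, adjusted p = 0.0119). Of 16 keratinocyte genes 7 were tested, 4 were lower and none higher, and 2 had positive values, Sprr1a and Sfn. Krt1, Krt5 and Krt14, and also Flg and Pkp1, reached the filter only through the carbidopa libraries, where they are high. Sfn had 57 and 41 reads with carbidopa and 79 and 55 with CHIR-99021 (0.75, adjusted p = 0.195). Sprr1a, a cornified envelope gene, missed the threshold (0.44, adjusted p = 0.137) but passed as higher in the fit of all 8 libraries (adjusted p = 0.0336). The summed list did not follow, at 107 to 118 CPM with carbidopa and 112 to 122 with CHIR-99021, since Sprr1a supplied most of it. Without carbidopa replicate 1 in the fit of all groups 2 of the 7 were higher and 4 lower.

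Endothelial and neural lists had 4 tested genes each and no call, and 4 of 8 endothelial markers, Pecam1 and Cdh5 among them, were below the filter. None of 8 erythroid genes reached the filter. Among 7 tested mesothelial genes 1 was higher, Bnc1 (1.62, adjusted p = 0.00205). Of 20 epithelial genes, Epcam, Cdh1 and Krt8 were among 10 below the filter. Of the 10 tested 3 were higher (Cdh3, Cldn4 and Dsp) and 3 lower (Cldn1, Pkp1 and Krt19). Cldn1 and Pkp1 reached the filter only through the carbidopa libraries, and Cldn4 only through the CHIR-99021 libraries, where each is high. Dsp, desmoplakin, had 68.0 and 91.3 against 162 and 183 (1.12, adjusted p = 0.0193), and Cldn1, claudin 1, had 31.3 and 51.0 against 5.45 and 2.23 (-3.37, adjusted p = 0.00608).

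Fibroblast genes themselves were redistributed. Of 14 tested, 6 were lower with CHIR-99021 and 1 higher, where 4.34% and 2.79% of all genes were. The median was -0.40. Ly6a, the surface antigen Sca-1, had 2403 and 2454 normalized counts with carbidopa and 531 and 692 with CHIR-99021 (-1.98, adjusted p = 0.000198). Dpp4, a surface peptidase of fascial fibroblasts, had 530.0 and 601 and 137 and 139 (-2.02, adjusted p = 0.00022), and Cd34 146 and 201 and 33.8 and 52.4, 4.01-fold lower (adjusted p = 0.00311). These 3 genes mark progenitor-like fibroblasts in skin and fat. Thy1 differed by less (-0.63, adjusted p = 0.0315). Pdgfrb, the PDGF receptor of mural cells and activated fibroblasts, was higher, at 4553 and 4992 against 9318 and 8894 (0.94, adjusted p = 0.00497), and Pdgfra did not pass (0.16, adjusted p = 0.629). Of 12 tested genes of the mesenchymal state, Snai2 was the only call (-0.65, adjusted p = 0.0312), and in the fit of all groups without carbidopa replicate 1 there were 3 higher and 5 lower.

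Ligands and receptors of other growth factor pathways differed too. In the BMP pathway, 4 of 15 genes were lower and 1 higher, where 4.34% and 2.79% of all genes were. The ligand genes Bmp2 (104 and 110.1 against 24.0 and 40.1, -1.73, adjusted p = 0.00864) and Bmp7 (-1.51, adjusted p = 0.0164) and the responsive genes Id2 (1146 and 946 against 380.3 and 472, -1.29, adjusted p = 0.00205) and Id4 (-1.06, adjusted p = 0.0274) were lower. Of 15 FGF genes, the ligand genes Fgf7 (-1.38, adjusted p = 0.00584) and Fgf10 (-1.60, adjusted p = 0.0198), which mesenchyme sends to epithelium, were lower. The receptor gene Fgfr1 (8055 and 7759.6 against 14012 and 13389, 0.80, adjusted p = 0.0108) and the ERK-responsive genes Dusp4 and Etv4 were higher.

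Retinoic acid and insulin-like growth factor genes were split as well. Crabp2, which carries retinoic acid to its receptor, had 170.1 and 127 with carbidopa and 514 and 479 with CHIR-99021 (1.75, adjusted p = 0.000819), and the receptor gene Rara 424 and 358 and 1061 and 898 (1.33, adjusted p = 0.00148). Cyp26b1, which degrades retinoic acid, was lower at 10799.7 and 11446 against 4359 and 4677 (-1.29, adjusted p = 0.001), as was Aldh1a1, which makes it (-1.25, adjusted p = 0.0188). In total 3 of 12 were higher and 2 lower, where 2.79% and 4.34% of all genes were. Of 11 IGF genes, Igfbp5, a binding protein, was 5.26-fold lower (2739.8 and 3983 against 608 and 665, -2.39, adjusted p = 0.000157) and Igf2 was also lower (-0.83, adjusted p = 0.018). Pappa, a protease that frees IGF from its binding proteins, was higher, at 763 and 1367 against 2992 and 3249.5 (1.56, adjusted p = 0.00395). Of 9 Notch genes, Hes1 was the only call (0.88, adjusted p = 0.0211).

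Cytokine genes gave 3 higher and 3 lower of 12 tested. Besides Csf1, the chemokine gene Cxcl12 (0.64, adjusted p = 0.028) and Lif (0.76, adjusted p = 0.0328) were higher. The alarmin gene Il33 (429.8 and 419 against 175 and 194, -1.19, adjusted p = 0.00326), the monocyte attractant Ccl2 (-0.76, adjusted p = 0.0228) and Ccl20, with 46 and 38 reads against 4 and 2, were lower. Macrophage markers were lower in the same libraries, and their part in the chemokine and interferon values was not tested. Ccl20 reached the filter only through the carbidopa libraries, where it is high. Xist, the transcript of the inactive X chromosome, was at 6046 and 5564 with carbidopa and 8979 and 10609 with CHIR-99021 (0.76, adjusted p = 0.0177), and no longer passed with the adjustment for gene length (adjusted p = 0.0877). The 4 Y-linked genes had log2 fold changes between -0.17 and -0.03 and none passed.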

How the data were processed

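RNA-seq had been performed on 8 libraries, of which 4 enter here. The authors mapped reads to mm10 with STAR 2.4.2a and counted them per gene with featureCounts. They deposited raw counts, whole numbers without normalization. The annotation release and the strand setting are not given in the sources used here. Groups were taken from the sample labels. Of the 50578 identifiers in the table, 50354 (99.6%) were found in GENCODE M21, which gave symbols, positions and exon lengths, a length being found for 99.8% of the genes tested. Of the mitochondrial list only mt-Cytb could be matched, so that list was not used.

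The counts were analysed in R 4.3.3 with edgeR 4.0.16 (filterByExpr, TMM, glmQLFit and glmQLFTest, group as the only term, fit of the 4 libraries, two-sided). The threshold was a Benjamini-Hochberg adjusted p under 0.05 over all genes tested. Some called genes, such as Aspn, Fcna, Fmod and Rspo2, reached the filter only through the group where they are high. The coefficient of biological variation was 14.0%. Log2 fold changes are CHIR-99021 minus carbidopa, ± SE. Normalized counts are counts divided by the size factors of DESeq2 1.42.0. Replicates of a group differed by more than sampling noise (chi-square over degrees of freedom 34.6 for carbidopa and 9.21 for CHIR-99021), so none was a library deposited again. Without molecular identifiers a read is not a molecule, and intervals and the floor of 3 counts therefore cover counting error only.

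Genes named are the 12 largest rises and 12 largest falls among called genes with non-overlapping libraries, 100 normalized counts or more in 1 group and no predicted-gene name, the 6 members of lowest p in every list, and a fixed set of Wnt, drug target, hepatocyte and sex-linked genes. Some of them are not reported here. Members named beyond these, such as Flg, were chosen after their values were seen. The comparison, the members and the lists were chosen with earlier results of these data known. Lists are described by counts and medians, without a set test. Promoters are RefSeq sequences of GRCm38.p6, 250 bases before the start, searched on both strands over 27025 genes. Besides the elements shown, 2 more were searched. A TCF site, CTTTGAA or CTTTGAT, was in 1 of 9 Wnt targets with a promoter and in 8.63% of all genes. The SMAD element CAGACA was in 2 of 9 TGF-beta targets with a promoter and in 19.3% of all genes.

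Alternatives were DESeq2's Wald test, RLE size factors, no filter, at least 10 counts in every library, fits of 6 or 8 libraries, a replicate block and leaving out each library. A length-dependent offset and leaving out libraries within the 8-library fit were added after seeing the data. The edgeR fit was tested on simulated data.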

Additional observations from a re-analysis of the deposited data

How the results depend on the processing

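With 2 libraries a group, the number of calls moved widely between settings. Of the 145 called genes named here, none changed sign in a setting that tested it. RLE size factors (982 genes) and at least 10 counts in every library (932) stayed near the 1027 calls, as did DESeq2 (1111). The named calls lost were Fmod, Lrp5, Rrm2 and Smtn with RLE, Alpl, Fmod, Rrm2 and Smtn with DESeq2, Lrp5, Smtn and Tpm1 with the minimum of 10, which left 13 of the 145 untested, and Xist with the length offset. Without the filter, 85 genes were called (25 higher, 60 lower), 115 of the 145 were lost, and Skil, Mfap4, Mrc1, Ccl6 and Tgfbi were among those kept. Fits with more libraries called more genes: 2227 (1003 higher, 1224 lower) with 8 libraries and 1548 (630 higher) with 6. The length offset gave 1824 (769 higher, 1055 lower) and kept 1024 of the 1027.

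A replicate block gave 2621 genes (1290 higher, 1331 lower) and kept all 1027. Nothing pairs the samples, which share only a number: the correlation of same-numbered deviations was 0.16.

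Leaving out 1 library gave 0 to 4452 genes (0 to 2303 higher, 0 to 2149 lower) in fits of 3 libraries, where the lone library is assumed to vary like the other group, and 715 to 4632 (288 to 2410 higher, 427 to 2222 lower) within the 8-library fit, 2881 (1430 higher, 1451 lower) of them without carbidopa replicate 1. Of the 145, 69 were lost without CHIR-99021 replicate 1 and all without CHIR-99021 replicate 2 in the 3-library fits. In the 8-library fit 33 and 16 were. Of 38 gene lists with a call, 11 had none without CHIR-99021 replicate 1 in the 3-library fit. Without carbidopa replicate 1 in the 8-library fit 31 of 40 lists had more calls and none fewer.

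Signs changed only for named genes that were not called. Over the fits of 3 libraries Col3a1 ran from -0.00055 to 0.084, Cyp1a1 from -0.15 to 1.90, Des from -0.060 to 0.42, Gsk3a from -0.022 to 0.073, Gsk3b from -0.0083 to 0.42 and Isg15 from -1.25 to 0.30. Within the 8-library fit the values of the other sign were -0.0051 for Col3a1, -0.15 for Cyp1a1, -0.064 for Des and -0.026 for Gsk3a without carbidopa replicate 2, and 0.33 for Isg15 without carbidopa replicate 1. The length offset put Col3a1 at -0.082.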

Other observations

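Single genes on the stress and xenobiotic lists were called, where 7.13% of all genes tested were. Of 17 tested genes of the NRF2 antioxidant response, Hmox1, heme oxygenase, was higher with CHIR-99021, at 5509 and 4286 normalized counts with carbidopa and 8348 and 7178 with CHIR-99021 (0.67, adjusted p = 0.0448), as was Txnrd1, thioredoxin reductase (0.66, adjusted p = 0.0249). Gstm1, a glutathione transferase, was lower (-0.83, adjusted p = 0.00861), and the median of the list was -0.10. Of 19 amino acid stress genes under ATF4, Trib3 was the only call (-0.76, adjusted p = 0.0374), and 16 of the 19 had negative values with a median of -0.28. Of 15 p53 targets Sesn1 alone was called (-0.72, adjusted p = 0.027), and Mdm2 had 10581 and 8735 against 14214 and 14176 (0.56, adjusted p = 0.0637). In the fit of all 8 libraries Mdm2 passed as higher (adjusted p = 0.00801). In the fit of all groups without carbidopa replicate 1, 1 of the ATF4 genes was higher and 6 lower, and 6 of the p53 targets were higher and 1 lower.

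Of 8 genes tied to the aryl hydrocarbon receptor, Cyp1b1 was higher with CHIR-99021, at 1438 and 1488 against 2454 and 2909 (0.88, adjusted p = 0.00806), and Ugt1a6a lower (-1.25, adjusted p = 0.0126). Cyp1a1, the usual reporter of that receptor, had 13 and 3 reads with carbidopa and 7 and 12 with CHIR-99021, which overlap. Among 9 adipocyte genes, the fatty acid carrier Fabp4 was higher, at 27.8 and 23.3 against 138 and 135 (2.42, adjusted p = 0.000798). The fatty acid uptake genes Cd36 (1015 and 1061 against 483 and 523, -1.04, adjusted p = 0.00291) and Lpl (-0.96, adjusted p = 0.00473) were lower, and 6 further markers, Adipoq and Plin1 among them, were below the filter. Of 7 bone and cartilage genes Runx2 was higher, at 283 and 333 against 538 and 641 (0.94, adjusted p = 0.0105). Alpl, on the same list, was lower (-1.63, adjusted p = 0.0383), and 4 of the 7 had positive and 3 negative values. Among the 4 hepatocyte markers tested, Trf, transferrin, was lower (-1.41, adjusted p = 0.0134) and Prox1 had 65.4 and 87.7 against 132 and 159 (0.93, adjusted p = 0.0517). In the fit of all 8 libraries Prox1 passed as higher (adjusted p = 0.0139).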
